A study of Mus musculus with 4 samples.

Results

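The 4 microRNAs (miRNAs) of mouse blood described here are miR-186, miR-31, miR-592 and miR-339, named mmu-mir-186, mmu-mir-31, mmu-mir-592 and mmu-mir-339 in the files. They are 4 of the 374 annotated miRNA loci listed in at least 1 library. They were chosen by name from the read counts themselves. miR-186, miR-31 and miR-592 were picked because, after scaling, both cadmium libraries lay below both controls. miR-339 was picked because both control lists hold it and neither cadmium list does. The lower levels with cadmium are therefore a description, and no test of them is given.

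The series profiled small RNA of whole blood from Balb/c mice, an inbred albino strain, aged 180 days. Control animals (2 libraries, agent "control") had ordinary feed and water, and the cadmium group (2 libraries, agent "cadmium") drank water to which the metal had been added. No label states the dose, the length of exposure or the animals' sex, nor whether a group's 2 libraries came from separate animals or from pools. The p-values below set the difference between groups against the spread between libraries of the same group, with the same estimate of spread for both groups. That difference and that spread may thus both be technical.

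A miRNA is cut from a hairpin-shaped precursor RNA, first by Drosha in the nucleus and then by Dicer in the cytoplasm. The duplex that remains has a 5p and a 3p strand, and the strand kept by an Argonaute protein guides it to messenger RNAs, mainly through its seed, bases 2 to 8. miRNA hairpins often lie in introns of protein-coding genes and can be made from the host's transcript. miR-31 is known from epithelium and from T cells, where Foxp3, the defining factor of regulatory T cells, is among its targets.

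The counted strands are shown first, because they set which product each count refers to. The mature RNAs, from RefSeq on build GRCm38.p6, are written 5′ to 3′ with the seed in capitals.

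miR-186-5p: cAAAGAAUucuccuuuugggcu

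miR-31-5p: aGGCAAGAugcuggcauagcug

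miR-592-5p: aUUGUGUCaauaugcgaugaugu

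miR-339-3p: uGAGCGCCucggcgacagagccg

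The 4 seeds differ from each other, and none of them is shared with another of the 1679 mature mouse miRNA names in the RefSeq table. The members are thus no seed family. For miR-186, miR-31 and miR-592 the files count the 5p strand, and for miR-339 the 3p strand. The partner strand of miR-339, miR-339-5p, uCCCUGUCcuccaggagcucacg, was not listed in any of the 4 libraries, so what is described below as miR-339 is its 3p product.

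The files give each locus a window, the stretch of genome whose reads were counted. For each member this window was identical in every library that listed it. The windows of miR-186 and miR-339 began at the RefSeq 5′ end and stopped 1 and 2 bases before the 3′ end, and that of miR-31 matched the RefSeq strand at both ends. The window of miR-592, ttgtgtcaatatgcgatgatg, began 1 base inside the RefSeq 5′ end and stopped 1 base before the 3′ end. Whether the miR-592 molecules themselves start at that base cannot be read from the counts. Counted from the window's first base, the seed would be UGUGUCA, which no other mature name in the table carries either.

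The hairpins show where each window sits, with the counted window in capitals (RefSeq, GRCm38.p6, strand of the gene). The pair of miR-592 and miR-339 is shown because these had the greatest differences of the 4.

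miR-592 hairpin: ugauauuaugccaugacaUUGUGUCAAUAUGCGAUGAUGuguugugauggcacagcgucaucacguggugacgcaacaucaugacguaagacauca

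miR-339 hairpin: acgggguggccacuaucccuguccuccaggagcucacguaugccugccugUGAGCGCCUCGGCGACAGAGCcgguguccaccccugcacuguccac

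**Figure D1:**
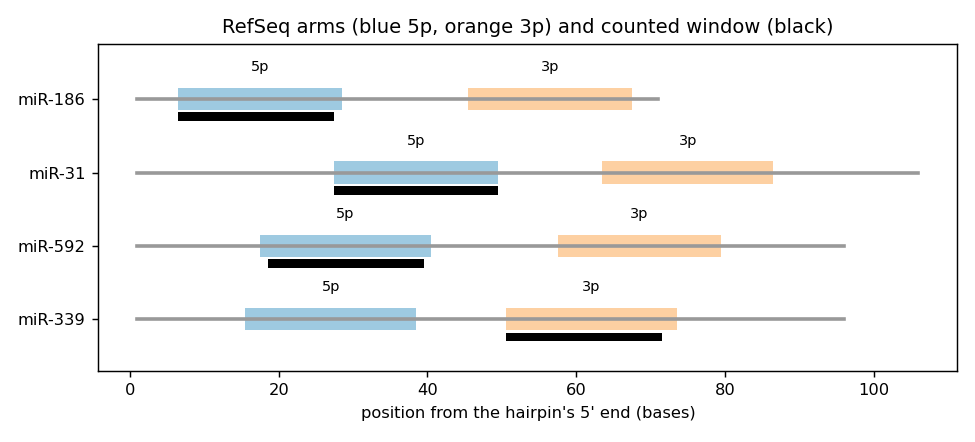
Position along the RefSeq hairpin, in bases from its 5′ end, for the 4 miRNAs: the grey line is the hairpin, blue and orange boxes are the 5p and 3p strands, and the black bar is the counted window. The window lies on the 5p strand of miR-186, miR-31 and miR-592 and on the 3p strand of miR-339.

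The base composition of the windows also differed. G and C made up 42.9% of the miR-186 window, 54.5% for miR-31, 38.1% for miR-592 and 71.4% for miR-339. The median over 276 tested annotated loci was 45.5%, and 98.9% of those loci had a lower share of G and C than miR-339. The members thus include both an A- and U-rich strand and a very G- and C-rich one.

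All 4 lie in transcribed host loci on the host's own strand (mm10 coordinates; host genes from GENCODE M21, which is on the same assembly). The miR-186 window is at chr3:157544285-157544305, plus strand, within an intron of Zranb2, a zinc finger protein linked to splicing. That intron is 1719 bases long, is shared by 6 annotated Zranb2 transcripts, and is intron 8 of 9 in the first coding transcript. The miR-31 window is at chr4:88910614-88910635, minus strand, in exon 3 of 3 of a long noncoding RNA, AL805899.1, and in no annotated protein-coding gene. The miR-592 window is at chr6:27936712-27936732, minus strand, in Grm8, the gene of a metabotropic glutamate receptor. It lies in a 218685-base intron of 4 coding transcripts and in the last exon, 6 of 6, of a noncoding Grm8 transcript. The miR-339 window is at chr5:139369675-139369695, minus strand, in intron 2 of the coding transcripts of 3110082I17Rik. No other listed locus, annotated or predicted, lay within 10 kb of any of the 4 hairpins, on either strand. Another name or window that could hold the missing miR-339 reads was therefore not found at this position. The members' windows were also compared with 673 other listed sequences of the 3 libraries whose sequences are in step with their rows. The shorter sequence was slid inside the longer, without gaps or overhang, and the nearest still differed at 7 bases. A copy whose window is shifted past the member's end could be missed, so whether reads were shared was not fully tested.

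Counts of annotated loci summed to between 14383852 and 35244119 per library, and both controls were deeper than both cadmium libraries. Levels are given as CPM, reads per 1000000 reads of a library after scaling by edgeR's TMM factors, which take most loci as unchanged. The red cell miRNAs miR-486 and miR-144 and the leukocyte miRNAs miR-142 and miR-150 were listed in all 4 libraries, while miR-451 and miR-223 are not analysed here.

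miR-186, an abundant blood miRNA, gave 551486 reads in control 1, 492162 in control 2, 181946 in cadmium 1 and 200239 in cadmium 2. Scaled, these were 17550 and 21940.4 CPM in controls and 11247 and 11782 CPM with cadmium. Both cadmium libraries lay below both controls, and the lower control stood 1.49-fold above the higher cadmium library. The group means were 19745 ± 3105 and 11515 ± 378 CPM (SD, n = 2 each), a 1.71-fold lower level with a log2 fold change of -0.78 ± 0.12 (SE). Control 2 was the higher control.

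By count, miR-186 ranked number 11, 8, 11 and 11 among the annotated loci of control 1, control 2, cadmium 1 and cadmium 2. It thus kept its place among the leading miRNAs while its share of annotated reads went from 1.56% and 1.999% in controls to 1.26% and 1.29% with cadmium. The widest 95% Wilson interval of these shares, 1.259% to 1.271% in cadmium 1, covers counting error only and is far narrower than the distance between the controls.

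Ratios within a library need no scaling. An abundant miRNA of the erythroid list below is miR-16-1. Its level nearly equals that of miR-16-2 (132817 and 132878 CPM in controls), so the reads may not be its own alone. Per 100 reads of miR-16-1, the controls held 13.3 and 16.4 reads of miR-186 and the cadmium libraries 8.80 and 9.01. Per 100 reads of miR-30e, another intronic miRNA, they were 51.1 and 53.3 in controls and 40.7 and 40.5 with cadmium. miR-186 was thus lower relative to both of these miRNAs in both cadmium libraries. miR-30e itself had a log2 fold change of -0.41 ± 0.11 in the same fit (edgeR adjusted p = 0.0378).

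miR-31 gave 9610 reads in control 1, 4590 in control 2, 1995 in cadmium 1 and 2062 in cadmium 2. These correspond to 306 and 204.6 CPM in controls and 123 and 121 CPM with cadmium. The groups did not overlap, the lower control being 1.66-fold above the higher cadmium library. The controls were 1.49-fold apart and the cadmium libraries 1.02-fold apart, against medians of 1.21-fold and 1.12-fold over all 276 tested loci. The means were 255 ± 71.6 and 122 ± 1.41 CPM (SD, n = 2 each), with a log2 fold change of -1.06 ± 0.23 (SE).

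The size of the miR-31 difference leans on control 1. Without control 1 its log2 fold change was -0.74 and that of miR-186 was -0.93, so the order of these miRNAs turned. Per 1000 reads of miR-186 the controls held 17.4 and 9.33 reads of miR-31 and the cadmium libraries 11.0 and 10.3. On this ratio the groups overlapped: both cadmium libraries lay between the controls. A greater relative difference of miR-31 than of miR-186 cannot be read from these 4 libraries.

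miR-592, a product of the Grm8 locus, gave 590 reads in control 1, 385 in control 2, 45 in cadmium 1 and 28 in cadmium 2. Scaled, controls were at 18.8 and 17.2 CPM and cadmium libraries at 2.78 and 1.65 CPM. The controls were 1.09-fold apart, and the lower of them stood 6.17-fold above the higher cadmium library. The means were 17.97 ± 1.14 and 2.21 ± 0.802 CPM (SD, n = 2 each), an 8.12-fold lower level with a log2 fold change of -3.02 ± 0.30 (SE).

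Counting error was wide only on the cadmium side of miR-592. The exact 95% Poisson intervals were 2.03 to 3.72 CPM and 1.09 to 2.38 CPM for cadmium libraries 1 and 2, against 15.5 to 18.97 CPM for control 2. These intervals take each read as an independent molecule. At the control mean, the cadmium libraries would have held 291 and 305 reads of miR-592 at their depth, against the 45 and 28 listed. The rank of miR-592 went from 111 and 113 among the annotated loci in controls to 215 and 235 with cadmium, although the cadmium lists were shorter.

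The within-library ratios of miR-592 stood apart as well. Per 1000 reads of miR-31 there were 61.4 and 83.9 reads of miR-592 in controls and 22.6 and 13.6 with cadmium. Relative to miR-31, itself lower with cadmium, miR-592 was lower again in both cadmium libraries. By TMM CPM the 3 fitted members were ordered miR-186, miR-31 and miR-592 in all 4 libraries, with no overlap between neighbours.

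miR-339 gave 592 reads in control 1 and 283 in control 2, that is 18.8 and 12.6 CPM (mean 15.7 ± 4.40, SD, n = 2), and it was listed in neither cadmium library. In control 1 its level could not be told from that of miR-592 beyond counting error, with exact 95% Poisson intervals of 17.4 to 20.4 CPM for miR-339 and 17.3 to 20.4 CPM for miR-592. In control 2 it was lower than miR-592, with intervals of 11.2 to 14.2 CPM against 15.5 to 18.97 CPM that do not overlap. Per 1000 reads of miR-31, both controls held 61.6 and 61.7 reads of miR-339, so these miRNAs differed between controls by nearly the same factor.

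An unlisted locus is not a measured 0. The lowest count in any list was 5 reads. At the control mean, the cadmium libraries would have held 254 and 267 reads of miR-339, and at the level of the lower control still 204.1 and 214.4. If the unlisted locus is taken as 4 reads, 1 below the lowest listed count, its log2 difference between the group means is -6.03. That figure rests on the assumption and is not a measured fold change, and why the locus was left out of the cadmium lists was not tested.

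Other loci shared the listing pattern by which miR-339 was picked. In all, 17 of the 316 annotated loci listed in both controls were listed in neither cadmium library, and the other 16 had 5 to 33 reads in controls. The most abundant of these 16, miR-7237, had 33 and 16 reads, and miR-8118 had 17 and 19. At their control means, the 16 would have had between 4.33 and 14.98 reads in the cadmium libraries, where the lowest count in any list was 5. Since this pattern chose miR-339, nothing is read from its place among the 17. In the other direction, 4 loci were listed in both cadmium libraries and in neither control: miR-3103 with 24 and 25 reads, miR-6975 with 19 and 25, miR-297c with 9 and 10, and miR-193a with 8 and 12.

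**Figure D2:**
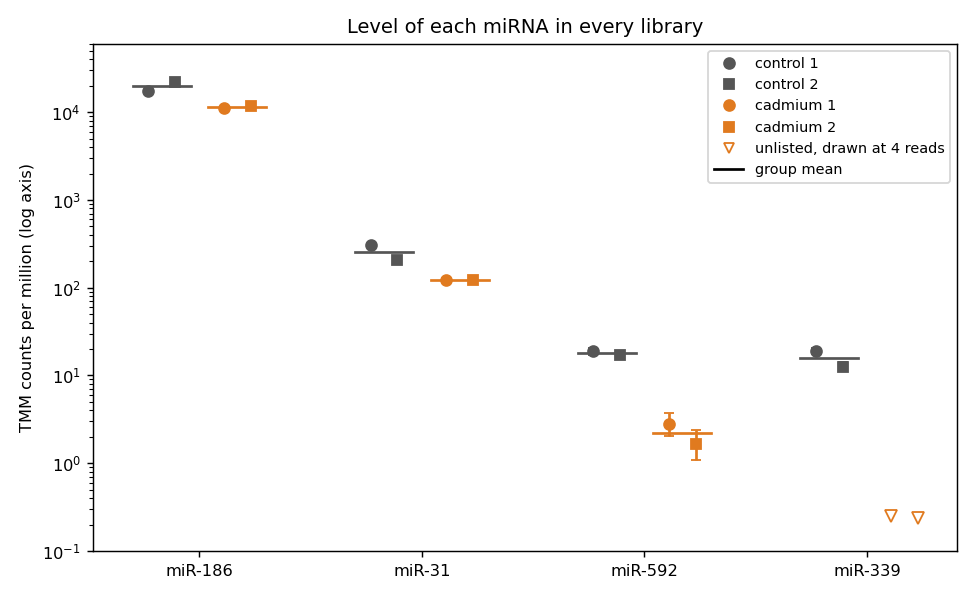
TMM CPM (log axis) of the 4 miRNAs in each library, controls in grey and cadmium in orange, with exact 95% Poisson intervals and a line at each group mean. For miR-186, miR-31 and miR-592 both cadmium points lie below both control points, and miR-339, unlisted with cadmium, is drawn there at an assumed 4 reads.

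To place these values, all 276 annotated loci listed in the 4 libraries on the same arm were fitted together. Of these, 84 (30.4%) had both cadmium libraries below both controls in CPM, among them miR-186, miR-31 and miR-592 by the way they were chosen, and 109 (39.5%) had both above. At an edgeR quasi-likelihood adjusted p under 0.05, 40 loci (14.5%) changed, 18 lower (6.52%) and 22 higher (7.97%). Because the members were picked on this contrast, nothing is read from their place among these loci. The locus just inside the no-overlap rule was miR-1947, with 22.98 and 16.09 CPM in controls and 16.07 and 14.4 CPM with cadmium. The locus just outside was miR-192, whose lower control, 1405 CPM, lay under its higher cadmium library, 1420 CPM.

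The median log2 fold change of all tested loci was 0.08 with TMM, -0.01 with DESeq2 size factors, 0.38 with library totals alone, 0.32 with the upper quartile and 0.21 with totals that leave out the dominant loci. Relative to that median, miR-186 stood at -0.86, -0.86, -0.86, -0.87 and -0.86 in the same order. miR-31 lay between -1.14 and -1.13, and miR-592 between -3.11 and -3.10. A scaling changes the library factors only and shifts all loci together, so these relative values are nearly fixed by construction and do not measure stability.

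**Figure D3:**
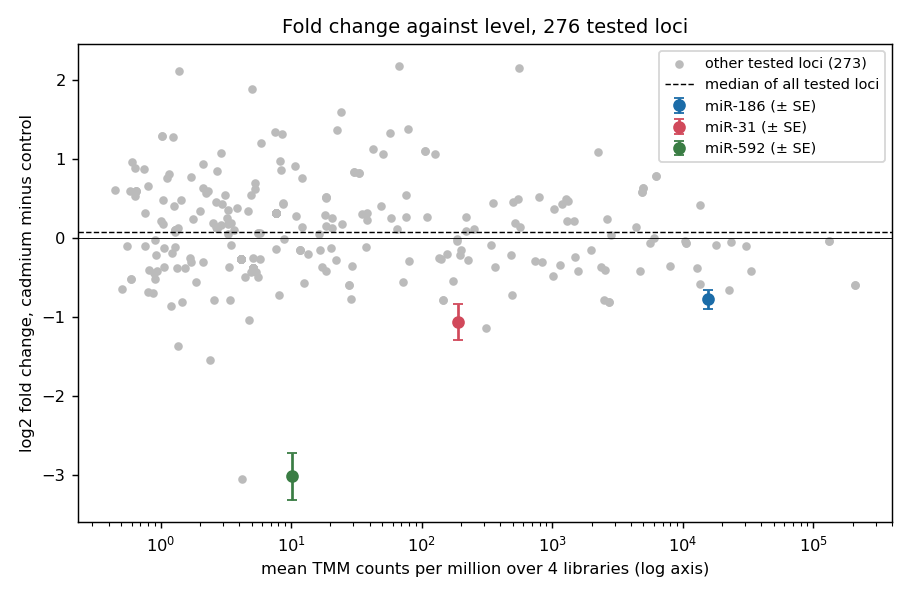
Log2 fold change, cadmium minus control, against mean TMM CPM (log axis) for 276 tested loci, with the 3 fitted members in colour and their standard errors. miR-592 lies at -3.02 near 10 CPM, and miR-205 at -3.05.

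Loci of similar abundance give the members' surroundings without a choice by direction. Next to miR-186 in mean CPM were miR-30a and miR-92a-2 above and miR-93 and miR-144 below. miR-30a fell by 0.66 ± 0.09 on the log2 scale (edgeR adjusted p = 0.00294), a call that upper quartile scaling ended (edgeR adjusted p = 0.0824). miR-144, of red cell precursors, fell by 0.58 ± 0.15 (edgeR adjusted p = 0.0359), a call lost with library totals alone (0.167), the upper quartile (0.206) and totals without dominant loci (0.0786). miR-92a-2, on chromosome X, had -0.08 ± 0.14, and miR-93, of the miR-106b-25 cluster in Mcm7, had 0.42 ± 0.21, and neither passed the threshold with TMM.

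Next to miR-31 were miR-126a and miR-141 above, with log2 fold changes of -0.15 ± 0.20 and -0.22 ± 0.23, and both copies of miR-128 below, at -0.01 ± 0.22 and -0.03 ± 0.22. None of these passed the threshold. Next to miR-592 were miR-99a and let-7e above, at 0.28 ± 0.29 and 0.92 ± 0.33, and miR-3066 and miR-125b-2 below, at -0.01 ± 0.22 and 0.44 ± 0.39. These did not pass it either.

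Loci near miR-592 in control level give a further description. There were 41 other annotated loci whose mean control CPM was within a factor of 2 of that of miR-592, and 40 of them were listed in both cadmium libraries. The exception was miR-339. The 40 had between 96 and 2025 cadmium reads, with medians of 358 and 371 in cadmium libraries 1 and 2, against 45 and 28 for miR-592. Of the 38 that entered the fit, 0 fell and 5 rose at an edgeR adjusted p under 0.05, beside 6.52% lower and 7.97% higher of all 276 tested loci, with a median log2 fold change of 0.20 and a lowest of -0.72. At an unadjusted p under 0.05, 2 were lower and 8 higher, and DESeq2 called 0 lower and 6 higher. Of all 276 tested loci, 79 passed at an unadjusted p under 0.05 in either direction, and DESeq2 called 21 lower and 17 higher. This comparison was set up after the values were seen, on a miRNA picked for being low, and nothing is read from it about why miR-592 was low.

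Likeness of pattern was measured as the root mean square difference of log2 CPM over the 4 libraries, after each locus's own mean was subtracted. The comparison ran over 108 other loci with a mean of at least 10 CPM, 1 per mature sequence. Since the members were chosen on the difference between groups, loci like them share it by construction, and no test of them is given here.

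Nearest to miR-186 was miR-10b, a Hox-cluster miRNA, at 0.06 on that log2 scale, then miR-146b at 0.11 and miR-30a at 0.12. miR-10b stood at 571 and 655 CPM in controls and 371 and 373 CPM with cadmium, so control 2 was the higher control in both miR-186 and miR-10b. Nearest to miR-31 were miR-181a-1 at 0.13, miR-181b-1 at 0.14 and miR-27b at 0.21. miR-181a-1 had 3978 and 2943 CPM in controls and 1973 and 1975 CPM with cadmium. As in miR-31, control 1 was the higher control and the cadmium libraries were nearly equal. miR-186 and miR-31 differed from each other by 0.35, more than either did from its nearest 3, and they differ in which control is higher.

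Nearest to miR-592 in that comparison was miR-322 at 1.09, then miR-296 at 1.15 and miR-27b at 1.16. These distances owe partly to the limit of 10 CPM: among loci under it, singled out after their values were seen, miR-205 was nearer at 0.46, miR-7670 at 0.85, miR-467c at 0.87 and miR-7015 at 1.05. miR-205, known from epithelium, was at 8.66 and 6.33 CPM in controls and 0.742 and 1.06 CPM with cadmium, with a log2 fold change of -3.05.

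**Figure D4:**
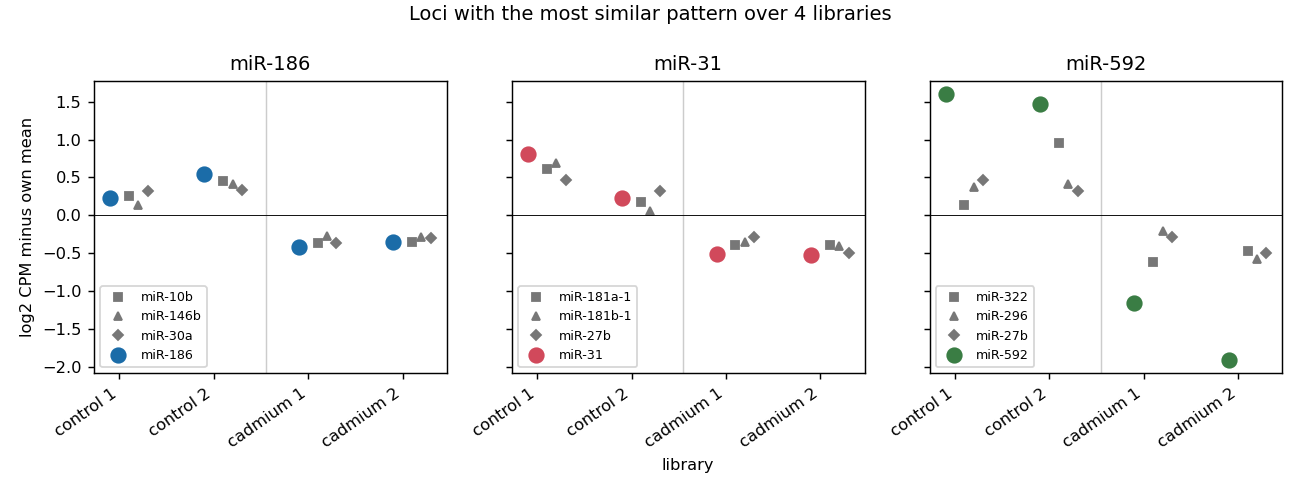
Log2 CPM minus each locus's own mean, per library, for miR-186, miR-31 and miR-592 (coloured) and the 3 loci of most similar pattern (grey). The grey points track miR-186 and miR-31 closely, at differences of 0.06 to 0.21, and do not reach miR-592, whose nearest locus of at least 10 CPM is at 1.09.

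Whole blood mixes many cell types, and fewer cells of a type cannot be told apart from less of a miRNA per cell. The counts of the lists that follow stand beside 6.52% lower and 7.97% higher of all 276 tested loci. At an unadjusted p under 0.05, 79 of the 276 passed in either direction. With library totals alone 57 rose and 8 fell, with the upper quartile 48 and 9, and without dominant loci 38 and 14. DESeq2 size factors gave 21 higher and 27 lower, and the DESeq2 test 17 and 21. The lymphocyte list, which holds the miR-181 loci named beside miR-31, had 3 of 11 tested loci lower and 0 higher, with a median log2 fold change of -0.49 against 0.08 over all tested loci. The 3 were miR-191 and both copies of miR-181a, which carry the same reads. At an unadjusted p under 0.05, 8 were lower and 0 higher. The 8 hold both copies of miR-181a and both of miR-181b, each pair with the same values. The count past the adjusted threshold depended on scaling: it was 7 lower with DESeq2 size factors, 2 with either the upper quartile or totals without dominant loci, and 0 with library totals alone. Its summed level, with each sequence counted once, was 22243 and 20528 CPM in controls and 15623 and 15775 CPM with cadmium, lower in both cadmium libraries as was miR-31. Most of that sum was miR-191, with means of 14449 CPM in controls and 11076 CPM with cadmium. A list of miRNAs known from T cells had 0 of 13 lower and 0 higher with edgeR and TMM, with a median of 0.19, and DESeq2 also called 0. At an unadjusted p under 0.05, 4 were higher, among them both copies of miR-19b, and 0 lower. On this list 6 rose with library totals alone, 4 with upper quartile scaling and 2 when dominant loci were left out of the totals. Its summed level ran the other way, from 17601 and 21826 CPM in controls to 23463 and 23611 CPM with cadmium. Most of that rise was miR-19b, from 4567 ± 2222 to 7901 ± 147 CPM (SD, n = 2 each), which did not pass the threshold. miR-21a, the most abundant on the list, had means of 10588 CPM in controls and 10361 CPM with cadmium. The part of any cell type in the miR-31 difference was not tested.

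miR-31 is also an epithelial miRNA, so an epithelial list was read beside it. There 1 of 9 loci fell, miR-205 (edgeR adjusted p = 0.00204), and 0 rose, under each of the 5 scalings. The list's median was -0.22 with TMM, 0.03 with the upper quartile and 0.08 with library totals alone. The medians of all tested loci were 0.08, 0.32 and 0.38 in the same order, so the list stayed below them. Its summed level was 2190 and 1835 CPM in controls and 1774 and 1634 CPM with cadmium.

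For miR-592, from a neuronal receptor gene, a neural list was read. Of its 19 names, 11 were listed in at least 1 library, and the neuronal miR-124 is not analysed here. Of the 10 that were tested in edgeR, 0 fell and 0 rose under each of the 5 scalings, with a TMM median of 0.10. At an unadjusted p under 0.05 the counts were also 0 and 0, as they were in DESeq2. Its summed level was 236 and 173 CPM in controls and 200 and 207 CPM with cadmium, so these groups overlapped where those of miR-592 did not. That sum was mostly miR-128, with miR-128-1 at a mean of 188 CPM in controls and 187 CPM with cadmium. It thus says little of the other neural names.

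miR-186, miR-592 and miR-339 sit in introns of protein-coding genes in at least some transcripts, so other miRNAs with such hosts were counted. Of 31 tested loci in this list, 11 rose and 4 fell with TMM, against 22 and 18 of all 276 tested loci. The median was 0.32 against 0.08. The 11 include miR-326, miR-324, miR-331, miR-345 and miR-700, already known to be raised in these data when the list was drawn up. Nothing is therefore read from the count of raised loci. The 4 that fell were miR-486, miR-30e, miR-27b and miR-191. Both copies of miR-103, which carry nearly the same reads, were among those that rose. DESeq2 called 8 higher and 2 lower, beside 17 and 21 of all 276 tested loci. The counts were 16 higher and 2 lower with library totals alone, beside 57 and 8 of all tested loci. They were 15 and 1 with the upper quartile, beside 48 and 9. The difference between this list and the other loci was not tested. The erythroid list had 2 of 10 lower, miR-486 and miR-144, and 0 higher, beside 6.52% and 7.97% of all tested loci. Its median was -0.05. The balance turned to 1 lower and 3 higher with library totals alone, beside 8 and 57 of all 276 tested loci. With upper quartile scaling the list had 0 lower and 1 higher, beside 9 and 48. Its summed level was 469834 and 445839 CPM in controls and 353969 and 366346 CPM with cadmium. Most of that fall was miR-486, with means of 253127 CPM in controls and 167228 CPM with cadmium. The means of miR-16-1 were 132817 and 129320 CPM, and those of miR-22 were 31771 and 29692 CPM. Since CPM are shares of a whole, the erythroid sum bears on the scale of every member. Its part in their differences was not tested.

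**Figure D5:**
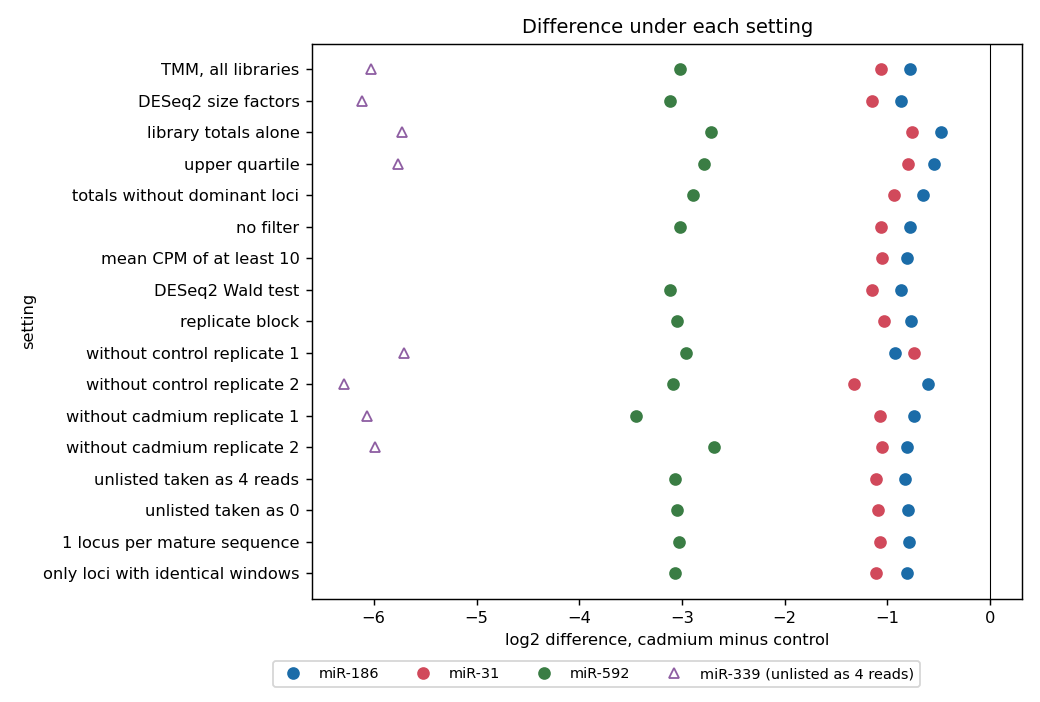
Log2 difference, cadmium minus control, of each miRNA under the main setting (top) and each alternative, with miR-339 (triangles) on the assumption of 4 reads where unlisted. All points lie left of 0, between -0.93 and -0.48 for miR-186, between -1.32 and -0.74 for miR-31, between -3.44 and -2.69 for miR-592 and between -6.29 and -5.71 for miR-339.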

How the data were processed

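Small RNA libraries from whole blood of 2 control and 2 cadmium samples were compared. Each deposited file holds, for 1 library, the count of mature reads at every locus it names, in whole numbers without normalization, per the file headers. The authors used Bowtie 0.12.2 and DESeq with build mm10, per the submitters' processing notes. What each tool was used for, the caller and the miRNA release were not given in the sources used here. Reads carried no stated molecular identifiers, so intervals cover counting error only.

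Rows were matched by name, a star form at the same position being merged with its plain name. The last row of cadmium 1, which has no name and repeats the column's total, was dropped. In control 2 the sequence column is out of step (162 of 693 lengths match) and was not used. Members were looked for under any name within 10 kb of their hairpins.

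The 277 annotated loci with overlapping windows in all 4 libraries were fitted in R 4.3.3 by the quasi-likelihood F test of edgeR 4.0.16, after TMM scaling and filterByExpr, which removed 1 locus. The model had no term besides group (2 residual degrees of freedom). Tests were two-sided, with a threshold of 0.05 after Benjamini-Hochberg adjustment. The test was checked on simulated counts. Standard errors were derived from each fold change and its F statistic. No p is given for the members.

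The members, lists and rules were chosen with earlier results of these data known. Besides the members, the text names loci of most similar pattern (3 per member), neighbours in mean CPM (2 above and 2 below), loci listed in 1 group only, and the called or leading members of the erythroid, lymphocyte, T cell, epithelial, neural and intronic lists. Myeloid and platelet lists were computed as well: 2 of 6 myeloid loci rose, both copies of miR-24, and 3 with library totals alone or the upper quartile. By edgeR, 0 of 6 platelet and endothelial loci changed (1 at an unadjusted p under 0.05, and 0 by DESeq2), while 2 rose with library totals alone and 1 with the upper quartile or with totals that leave out dominant loci. Sequences are RefSeq's, where all 4 members matched by symbol. Alternatives were other scalings, filters, DESeq2 1.42.0, a replicate block, libraries left out, other treatments of unlisted loci, 1 locus per sequence and, added after seeing the data, identical windows only and each cadmium library left out for miR-339. Other steps used pandas 2.3.3, SciPy 1.17.1 and, for figures, matplotlib 3.10.9, under Python 3.11.15.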

Additional observations from a re-analysis of the deposited data

How the results depend on the processing

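All 4 miRNAs kept a lower value with cadmium under each alternative run. miR-186 moved from -0.78 by more than its spread between libraries to -0.48 with library totals alone and -0.55 with the upper quartile, and miR-31 from -1.06 to -0.76 with library totals alone. With 1 library left out at a time, the values ranged from -0.93 to -0.61 for miR-186, from -1.32 to -0.74 for miR-31, from -3.44 to -2.69 for miR-592 and, with unlisted taken as 4 reads, from -6.29 to -5.71 for miR-339. With 1 library left in a group, that library is assumed to vary like the other group. A mean of at least 10 raw CPM leaves out miR-592, and no difference was computed for miR-339 with unlisted taken as 0, since a ratio to 0 is undefined. The count of changed loci, 40 in all, was 65 with library totals alone and 26 with a mean CPM of at least 10, where fewer loci were tested. It ranged from 8 without cadmium 1 to 122 without control 2. The higher and lower counts were 22 and 18 with TMM, 21 and 27 with DESeq2 size factors, 57 and 8 with library totals, 48 and 9 by upper quartile, and 38 and 14 when dominant loci were left out. With the replicate number as a block, 19 loci were called, and the members stood at -0.77, -1.03 and -3.04. Libraries of the same number did not deviate together (correlation across loci 0.00472), so the numbers are not taken to pair the samples. The cause of these shifts was not tested. Depth limits miR-592 with cadmium, at 45 and 28 reads, and leaves miR-339 there without a value.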
